A study of Mus musculus with 8 samples.

Results

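The estrogen-related receptors and their coregulators were followed by DNA methylation at 7 genes: Esrra, Esrrb and Esrrg, which encode ERRα, ERRβ and ERRγ; Ppargc1a, Ppargc1b and Pprc1, which encode the coactivators PGC-1α, PGC-1β and PRC; and Nrip1, which encodes the corepressor RIP140. Cytosines were taken from the GENCODE M21 gene body and the 5000 bp upstream of it, and a cytosine was tested where it had at least 10 reads in all 8 libraries. This left 607 of the 567886 cytosines tested in the whole genome, and 103 of 113644 tiles, which are fixed windows of 1000 bp. The data came from reduced representation bisulfite sequencing (RRBS), which reads genomic fragments cut at CCGG sites after bisulfite has converted unmethylated cytosines. NIC-5231 mouse mammary tumor cells formed tumors in a mammary fat pad of immunodeficient NSG mice, which were 5 to 7 weeks old at injection. Palpable tumors were treated by intraperitoneal injection every 2 days with vehicle (saline, PEG and DMSO), with the ERRα inhibitor C29 at 10 mg/kg, with the DNA methyltransferase inhibitor 5-azadC (decitabine) at 1 mg/kg, or with both agents at these doses, in groups of 5 mice. Each group was represented by 2 libraries, each made from tumor DNA pooled over 2 mice, so the spread between libraries is a spread between pools. All groups carry tumors of the same cell line, and DNA of host cells inside the tumors cannot be told apart from tumor DNA.

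ERRα and its relatives are orphan nuclear receptors that bind DNA without a known natural hormone and switch on genes of mitochondrial respiration, fatty acid oxidation and, in breast cancer cells, growth-supporting metabolism. Their activity depends on coactivators of the PGC-1 family, which dock on the receptor and recruit histone acetyltransferases and the transcription machinery, while RIP140 docks on the same receptors and recruits repressors. DNA methylation at a CpG-rich promoter usually accompanies silencing, whereas gene bodies are commonly methylated in active and inactive genes alike, so a methylation level is no measure of expression.

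Depth differed between libraries, and read counts summed over cytosines were lowest in the combination libraries, at 57947338 and 51359825. A read that covers several cytosines is counted at each of them. These sums ran from 51359825 to 81299065 per library, and the median cytosine was covered by 21 to 30 reads. Of the unmethylated control DNA added to each library, 0.216% to 0.329% of reads counted as methylated, and of the methylated control 97.5% to 98.3%. Over all tested cytosines the mean methylation was 34.9% in both vehicle libraries, 34.7% and 33.6% with C29, 30.5% and 30.9% with 5-azadC, and 31.6% in both combination libraries. Over the 607 cytosines of the 7 genes it was 31.8% and 32.2%, 30.5% and 29.3%, 28.4% and 26.4%, and 28.6% and 28.4% in the same order. Cell types could be checked only through start-site methylation: 5 of 7 epithelial markers were measured, with means over the libraries from 0.547% (Krt18) to 41.6% (Erbb2), against 1 of 3 endothelial markers (Kdr, 11.4%), 1 of 3 stromal markers (Pdgfra, 0.122%) and 2 of 3 adipocyte markers (4.78% and 70.6%). The part of host cells in the values below was not tested.

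RRBS saw a small and uneven share of each gene. The 607 cytosines were 2.27% of the 26760 CpG cytosines in these regions, which hold 1002 CCGG sites. Among the receptors, Esrra (ENSMUSG00000024955.14, chr19:6910977-6921813, minus strand) was represented by 45 cytosines in 8 tiles, Esrrb (ENSMUSG00000021255.17, chr12:86361117-86521628, plus strand) by 72 in 20 and Esrrg (ENSMUSG00000026610.13, chr1:187608791-188214885, plus strand) by 167 in 41. Among the coregulators, Pprc1 (ENSMUSG00000055491.14, chr19:46044886-46072915, plus strand) was represented by 109 in 10, Nrip1 (ENSMUSG00000048490.14, chr16:76287400-76373827, minus strand) by 91 in 11 and Ppargc1b by 120 in 12. Ppargc1a, the coactivator best known from brown fat and muscle (ENSMUSG00000029167.13, chr5:51454250-51567726, minus strand), was represented by only 3 cytosines of a single intronic tile 60371 bp from the nearest start site, so nothing can be said of its promoters. Of the 607 cytosines, 276 lay within 50 bp of a same-strand cytosine with the same read count in all 8 libraries. Such neighbours can lie on the same fragments and are not independent measurements. Some tiles also overlap other annotated genes. These include Trmt112, Mir6990, Catsperz and Kcnk4 at Esrra, Ldb1 at Pprc1 and Gm36388 at Esrrg, so values there need not concern the member gene alone.

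In tumors given vehicle the cytosines fell mostly at the ends of the scale. Their vehicle mean was below 10% for 318, between 10% and 80% for 166 and above 80% for 123, and 235 had no methylated read in any library. The coregulator genes were dominated by unmethylated cytosines, with 93 of 109 below 10% in Pprc1, 89 of 120 in Ppargc1b and 65 of 91 in Nrip1. The receptors differed: 19 of 45 were below 10% in Esrra, 38 of 167 in Esrrg and 14 of 72 in Esrrb. In Esrrb 47 and in Esrrg 96 cytosines were between 10% and 80%.

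At the measured starts near the 5′ ends of Esrra, Ppargc1b and Nrip1 and at the upstream and central starts of Pprc1, mean methylation was low. Within 500 bp of the Esrra starts at the 5′ end of the gene, 15 cytosines averaged 0.239% over the 8 libraries. The corresponding means were 0.270% over 39 cytosines for Ppargc1b, 0.388% over 46 cytosines for the central Pprc1 start and 0.261% over 28 for its upstream start, and 0.151% over 47 cytosines for Nrip1-205, whose start lies among those of several Nrip1 transcripts. These means lie at or near the share of methylated reads in the unmethylated control DNA. The Nrip1 tile chr16:76373001-76374000, intronic sequence with 7 cytosines that holds these starts and the outermost ones, was at 3.18% in C29 library 2, 2.06% in 5-azadC library 2, 3.81% in combination library 2 and 0% in the other 5 libraries. The start of Nrip1-204, farther inside the gene, had no tested cytosine within 500 bp. Pprc1 also has 2 noncoding transcripts that start far inside the gene, at 78.6% and 95.1%. The start-site tile of Esrra (chr19:6921001-6922000 in GRCm38, UTR exon, intron and upstream sequence) held 0.244% and 0% methylated reads with vehicle, 1.85% and 0.619% with C29, and 0% in all 4 libraries with 5-azadC or the combination, over 379 to 1402 reads. A count of 0 in these libraries allows up to 0.396% with vehicle, 0.332% and 0.318% with 5-azadC, and 0.792% and 0.556% under both agents. Both C29 libraries were above both vehicle libraries, by 1.14 percentage points in pooled reads, and the excess in library 1 sat almost wholly in a single cytosine, at 16.3% there and 0% in library 2. The promoter sequence is shown because it is the regulatory region of the drug's own target. It is read on the coding strand of Esrra from the GRCm38 genome, chr19:6921814-6922058, just upstream of the annotated start, with the 9 measured CpGs in capitals.
Esrra promoter: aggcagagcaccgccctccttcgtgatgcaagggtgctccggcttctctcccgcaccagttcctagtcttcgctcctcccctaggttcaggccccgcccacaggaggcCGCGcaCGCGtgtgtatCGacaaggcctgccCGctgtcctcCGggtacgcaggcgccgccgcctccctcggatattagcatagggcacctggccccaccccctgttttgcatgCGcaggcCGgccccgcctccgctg

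**Figure D1:**
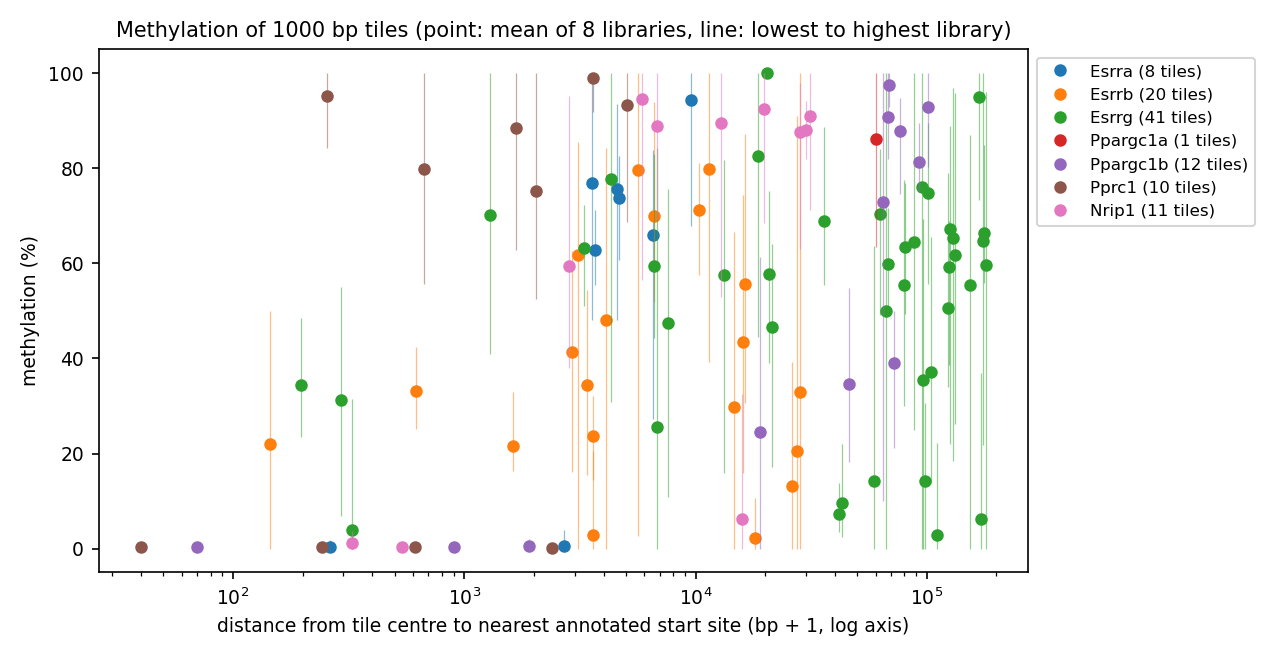
Methylation (%) of the 103 tiles of the 7 genes against the distance of the tile centre from the nearest annotated start site (bp plus 1, log axis); points are means of the 8 libraries and lines run from the lowest to the highest library. The start tiles of Esrra, Ppargc1b and Nrip1 sit near 0%, the Esrrg start tile with 29 cytosines runs from 23.4% to 48.4%, and many tiles far from a start site have long lines.

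The letters AAGGTCA, the core of the DNA element that ERR receptors bind, were searched on both strands of the RefSeq promoters of GRCm38.p6, which run from 250 bases before to 50 after a start. Entries were found for 6 of the 7 genes, with 11 promoters in all, and none of the 11 held these letters, against 1550 of 32851 promoters (4.72%) in the genome. The longer form TCAAGGTCA was in 139 of all promoters (0.423%) and in none of the 11. This says only that the letters are not in these windows.

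Esrrb and the upstream starts of Esrrg were partly methylated where they were measured. For Esrrb, whose product ERRβ is known for its roles in pluripotent cells and the placenta, the 5 cytosines within 500 bp of the start of transcripts Esrrb-202 and Esrrb-203 averaged 19.1% and 38.5% with vehicle, 5.54% and 27.8% with C29, 0% and 26.7% with 5-azadC, and 24% and 21.5% under both agents. The starts of Esrrb-204, Esrrb-205 and Esrrb-206 had no tested cytosine within 500 bp. The groups overlapped over these 5 cytosines, and vehicle, C29 and 5-azadC each had a wide gap between libraries. The tile that holds this start, chr12:86421001-86422000, had 2 cytosines and 22 to 102 reads. It was at 25% and 50% with vehicle, 0% and 19.6% with C29, 0% and 48.5% with 5-azadC, and 32.1% and 0% under both agents. Both C29 libraries were below both vehicle libraries there, by 20.1 points (logistic q = 0.000923, edgeR unadjusted p = 0.449). The tile was not called, and 13.4% of all tiles separated in this way. The adjoining tile chr12:86422001-86423000, intronic with 14 cytosines and 299 to 725 reads, was steadier at 37.0% and 33.7%, 42.4% and 34.8%, 26.3% and 25.2%, and 34.8% and 31.6%. Both 5-azadC libraries were below both vehicle libraries there, by 9.38 points in pooled reads, which is under the 25 points required for a call.

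Esrrg, whose product ERRγ is prominent in heart, kidney and other oxidative tissues, had 2 adjoining start tiles at its upstream end whose C29 differences ran in opposite directions. Tile chr1:187608001-187609000, upstream sequence that holds the start of Esrrg-204, had 4 cytosines and 125 to 247 reads. It was at 6.94% and 28.3% with vehicle, 25.4% and 54.9% with C29, 23.5% and 49.6% with 5-azadC, and 35.8% and 25.6% under both agents. Vehicle and C29 overlapped there, and the C29 difference was 19.9 points in pooled reads (logistic q = 1.38e-07, edgeR unadjusted p = 0.272), under the 25 points for a call. In the next tile the C29 and vehicle libraries did not overlap. The tile chr1:187609001-187610000 holds the starts of transcripts Esrrg-203 and Esrrg-205, with UTR and noncoding exon and intron sequence, 29 tested cytosines and 731 to 1434 reads per library. Vehicle libraries were at 43.5% (95% Wilson interval 40.8% to 46.2%) and 42.9% (40.3% to 45.5%), and C29 libraries at 23.4% (20.8% to 26.3%) and 24.1% (21.7% to 26.6%). The 5-azadC libraries were at 31.0% and 28.5%, and the combination libraries at 48.4% and 34.1%. Both single agents were thus below vehicle without overlap, while the combination overlapped vehicle. The intervals cover counting error only, since PCR copies of a molecule cannot be told from separate molecules in these files.

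The mean of this second Esrrg start tile was 43.2% ± 0.403 with vehicle, 23.8% ± 0.457 with C29, 29.8% ± 1.76 with 5-azadC and 41.3% ± 10.1 under both agents (SD, n = 2 each). The logistic test on reads gave a difference of -19.4 points for C29 (q = 2.6e-42), but the tile fell short of the required 25 points and was not called. That test sees counting error alone. With the spread between libraries included, edgeR's quasi-likelihood test gave an unadjusted p of 0.212 for C29 alone against vehicle, 0.695 for C29 over all 8 libraries and 0.173 for the interaction with 5-azadC, and the overdispersion-corrected F test for C29 alone gave an unadjusted p of 0.00502 and q = 0.9 over all tiles. The C29 difference was -19.4 points without 5-azadC and 11.5 points with it, and the change between these values did not pass the interaction test.

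The C29 libraries were lowest around the start of Esrrg-203, in the RefSeq promoter that ends 50 bases after a start at 187609006; GENCODE counts the bases just before that start as intron of the longer Esrrg-204. The 7 tested cytosines of this promoter averaged 54.6% and 54.1% with vehicle, 4.86% and 24.5% with C29, 69.7% and 50.5% with 5-azadC, and 35.7% and 72.7% under both agents. The C29 libraries were the lowest of the 8, and the libraries with both agents did not share this. The cytosine at 187609010 showed the largest C29 difference in the 7 genes, with 100% in both vehicle libraries, 0% and 2.33% with C29, 53.3% and 80% with 5-azadC, and 0% and 51.5% under both agents, over 15 to 64 reads. Farther into the first intron, the minus-strand cytosines at 187609275 and 187609277 were also called lower with C29 while their neighbours were not. Called cytosines at 187609670, 187609674 and 187609681 rested on vehicle library 2, since vehicle library 1 was at 0% in all 3. Both stretches are printed on the plus strand of chr1 with tested CpGs in capitals, the first at 187608999 to 187609028 and the second at 187609235 to 187609325; the first carries the cytosine at 187609010, and the second the intronic ones.
Esrrg start: gccCGgcagccCGaacccCGtgccCGattc
Esrrg first intron: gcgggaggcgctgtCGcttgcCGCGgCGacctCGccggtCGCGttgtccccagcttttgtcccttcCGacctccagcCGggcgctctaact

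**Figure D2:**
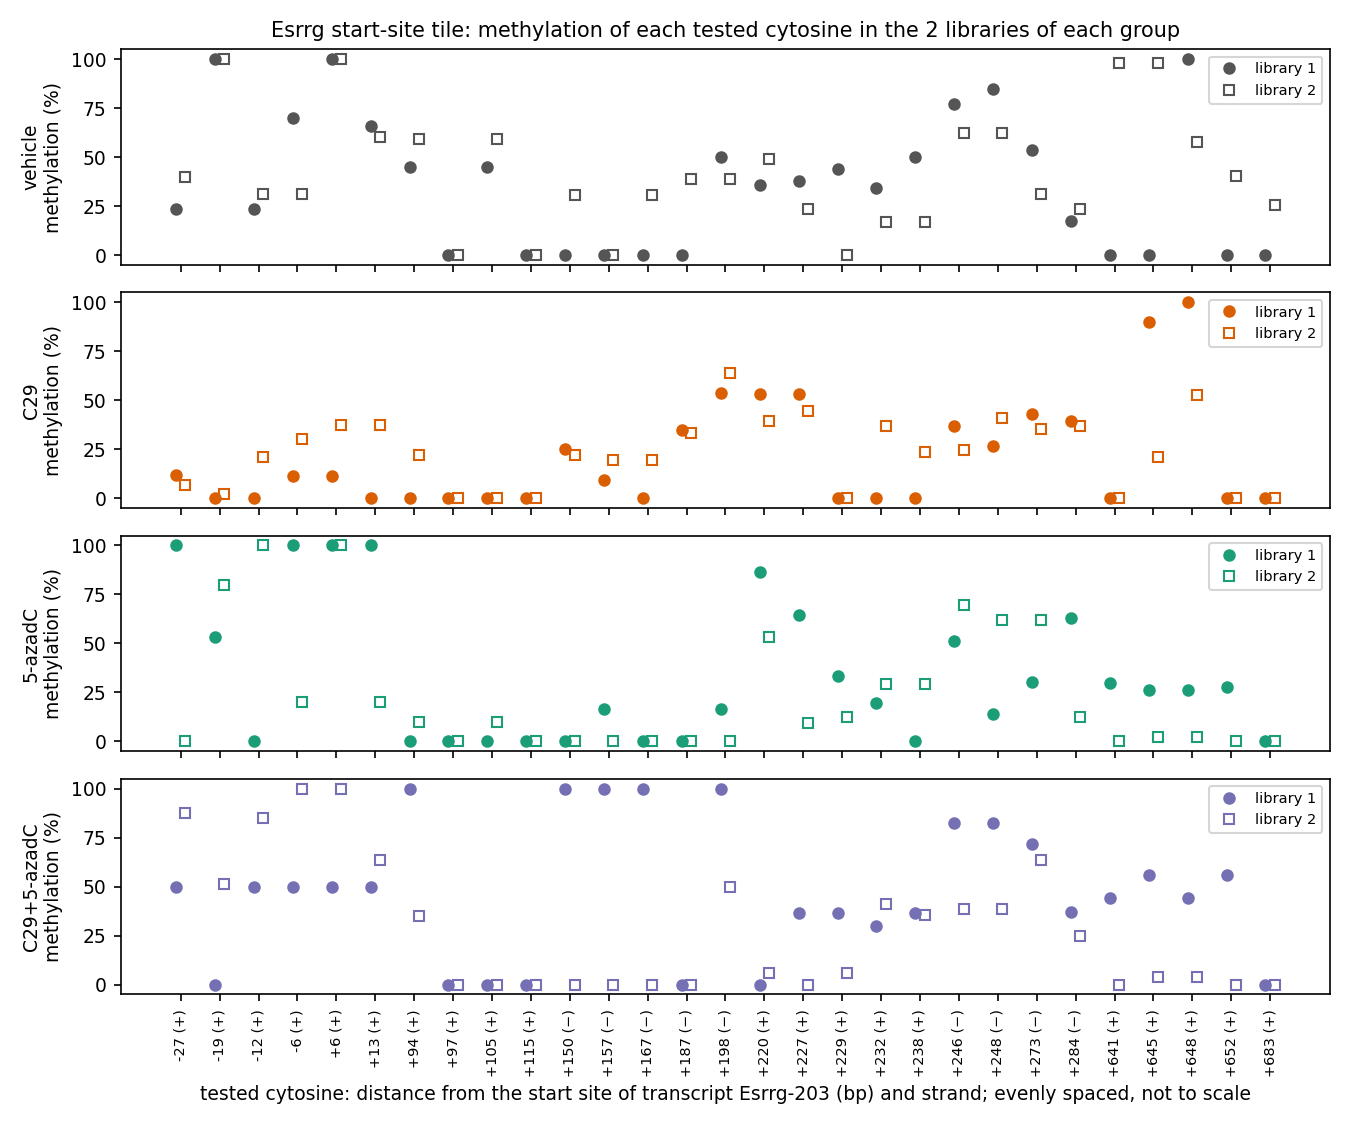
Methylation (%) of the 29 tested cytosines of the Esrrg start-site tile, in order along the chromosome and labelled by distance from the start of transcript Esrrg-203 (bp) and strand, in a panel for each group with filled circles for library 1 and open squares for library 2. The leftmost 6 cytosines lie at 0% to 37.2% in both C29 libraries and at 23.4% to 100% with vehicle, whereas the 5-azadC and combination libraries spread from 0% to 100%.

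RefSeq places further Esrrg starts in what GENCODE calls an intron. The tile there, chr1:187651001-187652000, whose centre is 41804 bp from the nearest GENCODE start, had low methylation, with 33 cytosines at 5.46% and 10.5% with vehicle, 13.7% and 4.54% with C29, 9.50% and 6.25% with 5-azadC and 3.52% and 4.91% under both agents. The next tile had 8 cytosines and ranged from 2.54% to 22%. Libraries of a group differed there by as much as groups did. The start of Esrrg-201 and Esrrg-202, far downstream, had 2 tested cytosines at 0% in 7 libraries and at 31.5% in combination library 1.

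Across the 103 tiles, low methylation went with CpG density. The 15 tiles with a mean below 5% over the libraries had a median of 64 CpGs and a median observed-to-expected CpG ratio of 0.721, and the other 88 had 15 CpGs and a ratio of 0.278. Of the 10 tiles that hold a start site, 6 were below 5%. The exceptions were the partly methylated Esrrb and Esrrg tiles and the tile chr19:46071001-46072000 at the 3′ end of Pprc1, which holds the start of a retained-intron transcript inside coding sequence and averaged 95.1%.

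Averaged per gene, the largest difference between C29 alone and vehicle was in Esrrg. The vehicle means were 89.0% ± 10.3 for Ppargc1a, 45.6% ± 3.05 for Esrra, 45.3% ± 0.896 for Esrrg, 38.6% ± 1.74 for Esrrb, 27.1% ± 0.108 for Nrip1, 23.5% ± 0.555 for Ppargc1b and 13.3% ± 0.0681 for Pprc1 (SD, n = 2). Esrra and Esrrg overlapped and the other neighbours in this order did not, although each mean mixes start-site and gene-body cytosines in its own proportion. Esrrg was at 44.7% and 46.0% with vehicle, 38.9% and 38.7% with C29, 38.4% and 32.2% with 5-azadC, and 42.5% and 36.5% under both agents. Every treated library was below both vehicle libraries there, and the same held for Ppargc1b and Nrip1. The share of all genes with this pattern was not determined. The C29 difference of Esrrg was -6.56 points (exact two-sided permutation p = 0.333, the smallest that 2 against 2 libraries allows).

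Over all 8 libraries, 4 with C29 and 4 without, no gene mean differed beyond the spread. The differences ran from -1.38 points (Nrip1) to 3.48 points (Ppargc1a), and the exact permutation p ranged from 0.229 to 0.886. After Benjamini-Hochberg adjustment over 28603 genes all 7 were at q = 1, as was every other gene, so q cannot set them apart. Genome-wide, 1.99% of genes had a permutation p under 0.05 for C29, and none of the 7 did. None separated the 4 libraries with C29 from the 4 without, against 0.895% of genes lower and 1.09% higher. The median C29 difference over all genes was 0.0401 points.

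With 5-azadC all 7 differences were below 0, and for Pprc1 and Nrip1 the 4 libraries with the drug did not overlap the 4 without. Pprc1 was at 13.3% and 13.2% with vehicle and 12.9% and 13.2% with C29, against 11.3% and 11.9% with 5-azadC and 10.3% and 12% under both agents. Its difference was -1.80 points (exact permutation p = 0.0286, the smallest that 4 against 4 allows, q = 0.265 over all genes, also the smallest that any gene reached). Nrip1 was at 27.2% and 27%, 26.6% and 26.1%, 24.8% and 26.0%, and 23.9% and 23.0% in the same order. Its difference was -2.29 points with the same exact permutation p and the same q. Among all genes 10.5% were lower and 0.29% higher without overlap in this way, and the median difference over all genes was -2.40 points, so both genes lay near the genome's median. The remaining differences were -2.67 points for Esrra, -4.78 for Esrrb (exact permutation p = 0.0571), -4.66 for Esrrg, -11.7 for the 3 cytosines of Ppargc1a and -1.30 for Ppargc1b.

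**Figure D3:**
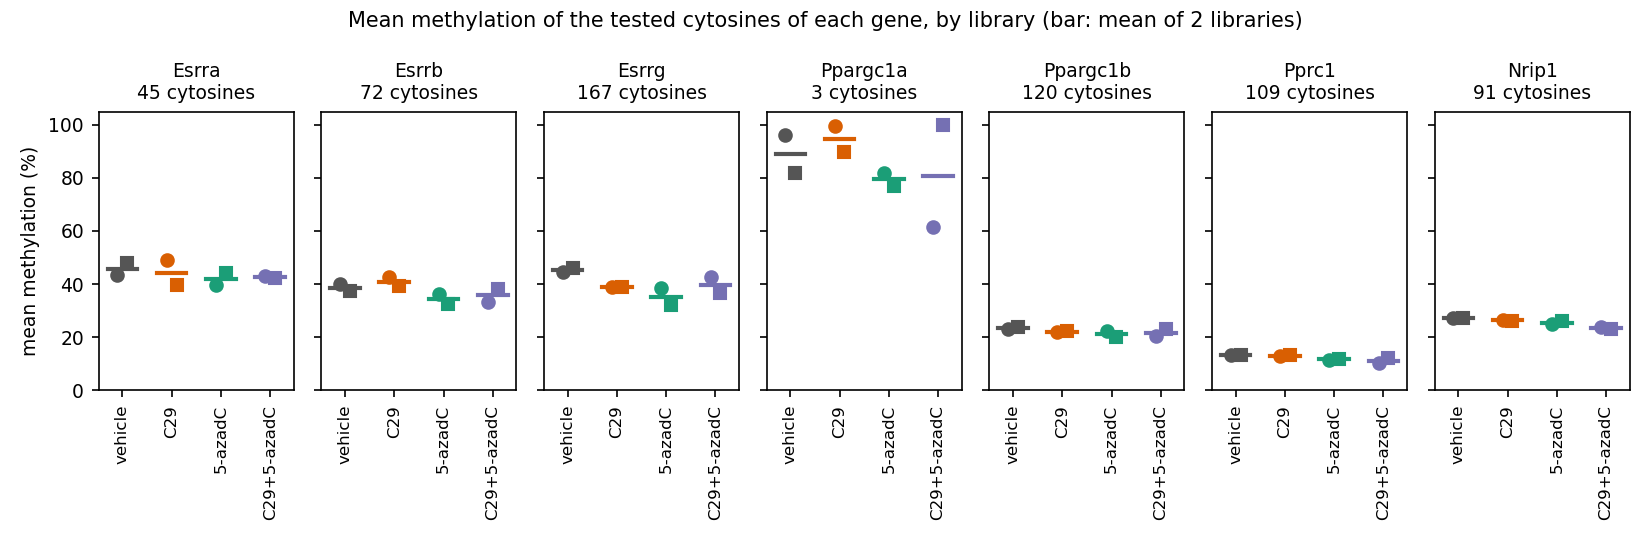
Mean methylation (%) of the tested cytosines of each gene in each library (circles library 1, squares library 2; bars the mean of 2 libraries), by group. The 4 libraries with 5-azadC lie below the 4 without for Pprc1 and Nrip1. The C29 libraries of Esrrg (38.9% and 38.7%) lie below vehicle (44.7% and 46.0%), as do those of Ppargc1b and Nrip1. The share of all genes that separate in this way was not determined. The 3 cytosines of Ppargc1a spread from 61.4% to 100% with the combination.

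Tile by tile, C29 alone against vehicle was the main question. The logistic test at q below 0.01 and at least 25 points called 9 of the 103 tiles, 6 lower and 3 higher, or 8.74%, against 10.6% of all tiles in the genome. Lower calls were 5.83% of the tiles against 5.43% in the genome, and higher calls 2.91% against 5.21%. Of single cytosines, 63 of 607 were called (10.4%, against 10.7% of all), 42 lower (6.92%, against 5.93%) and 21 higher (3.46%, against 4.73%). Of the 42 lower ones, 31 were among the 167 tested cytosines of Esrrg. Of the 9 tiles, 6 belonged to Esrrg, which had 41 of the 103 tested tiles, and 1 each to Esrrb, Ppargc1b and Pprc1. None held a start site, and 8 rested on 1 cytosine. No tile of Esrra, the gene of the inhibited receptor, or of Nrip1 was called.

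Vehicle and C29 libraries did not overlap in 5 of the 9 tiles, 3 lower (2.91%, against 3.49% of all tiles) and 2 higher (1.94%, against 3.28%). Called or not, 14 tiles separated with C29 lower (13.6%, against 13.4%) and 9 with C29 higher (8.74%, against 12.2%). Upstream of Esrrg, in chr1:187604001-187605000, a single cytosine upstream of the start was at 83.3% and 100% with vehicle and at 56.5% and 30.8% with C29, over 13 to 78 reads. It was at 94.7% and 100% with 5-azadC and at 100% and 57.1% under both agents, so the C29 libraries and 1 combination library were the low ones. In an Esrrg intron, chr1:187697001-187698000, the cytosine was at 71.1% and 77.6% with vehicle and 44.8% and 49.3% with C29, but at 25% and 100% with 5-azadC and 48.1% and 100% under both agents. The tile of Pprc1, chr19:46054001-46055000, was at 53.3% and 67.7% with vehicle, 100% in both C29 libraries, 67.8% and 52.5% with 5-azadC and 100% and 60.0% under both agents, with as few as 12 reads. The tile of Esrrb, chr12:86481001-86482000, held 98.3% and 54.3% in the vehicle libraries against 100% in both C29 libraries. The Wilson interval of vehicle library 1 (90.9% to 99.7%) overlapped that of C29 library 1 (93.4% to 100%), so these libraries were not separated beyond counting error. The tile was at 100% and 82.6% with 5-azadC and 64.9% and 39.3% under both agents, so C29 libraries were the highest without 5-azadC and the lowest single value came with both agents. The sites of Esrrg and Esrrb are printed on the plus strand with 40 bases on each side of the tested cytosine, whose CpG is in capitals; their positions are chr1:187604222-187604302, chr1:187697718-187697798 and chr12:86481213-86481293.
Esrrg upstream: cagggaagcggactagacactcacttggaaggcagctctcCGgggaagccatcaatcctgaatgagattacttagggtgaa
Esrrg intron A: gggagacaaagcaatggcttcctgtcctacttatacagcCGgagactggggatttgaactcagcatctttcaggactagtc
Esrrb intron E: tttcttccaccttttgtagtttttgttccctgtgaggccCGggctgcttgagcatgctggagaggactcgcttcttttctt

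Each of these printed sites lies inside a CCGG, the sequence at which RRBS fragments start. None held AAGGTCA on either strand.

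The other 4 tiles were called although their libraries disagreed. The Esrrg tile chr1:187676001-187677000 was at 0% and 100% with vehicle and 94.4% and 65.2% with C29, and chr1:187938001-187939000 at 63.6% and 0% with vehicle and 0% in both C29 libraries, which allows up to 4.35% and 21.4%. In chr1:187843001-187844000 the C29 libraries were at 0% and 84.9% against 87.0% and 75.9% with vehicle. The only called tile with at least 3 cytosines, chr1:187918001-187919000, was at 70.1% and 77.6% with vehicle and at 70.2% and 30.1% with C29, so its difference of -26.6 points came from library 2.

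**Figure D4:**
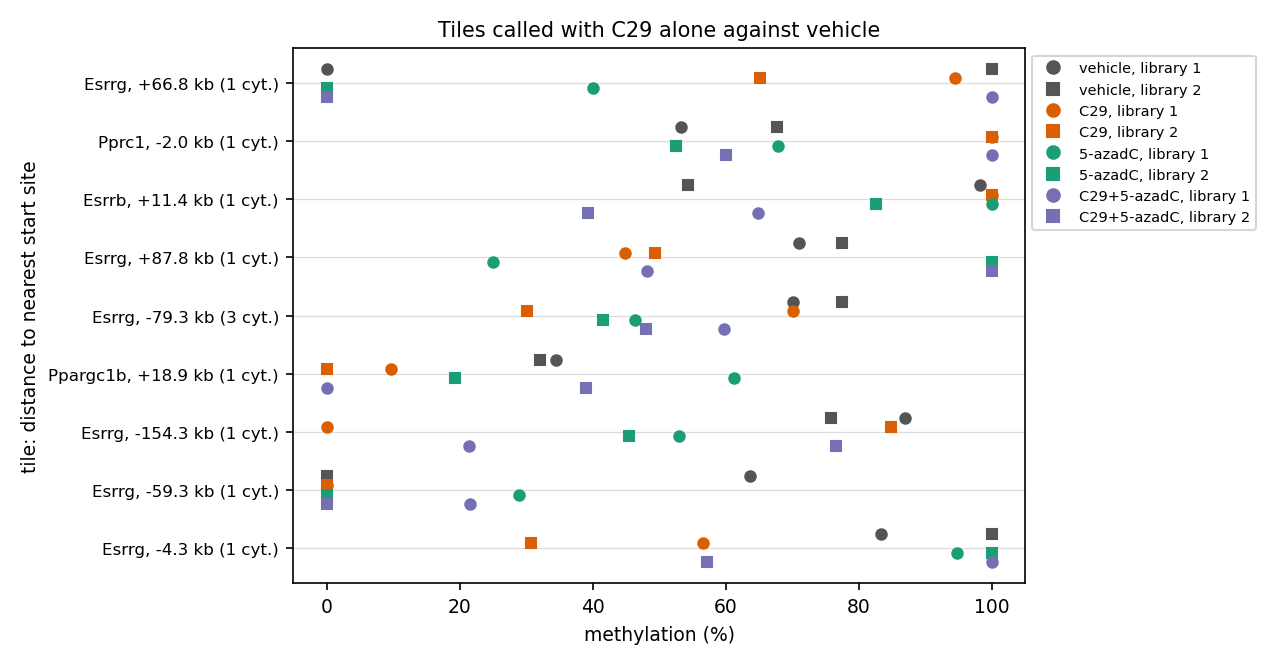
Methylation (%) of the 9 tiles called with C29 alone against vehicle, in each of the 8 libraries; rows are labelled with the gene, the distance of the tile centre from the nearest start site (kb) and the number of tested cytosines. The vehicle and C29 values do not overlap in 5 rows, in 1 of them by only 98.3% against 100%, and within 1 row the vehicle libraries lie at 0% and 100%.

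With the spread between libraries included, no tile was called for C29. edgeR over all 8 libraries gave 0 of 103 at an adjusted p below 0.05 and 0.0% of all tiles, with a smallest adjusted p of 1. At an unadjusted p below 0.05 it had 1 of 103 (0.971%), against 2.55% of all tiles. This single tile, with an unadjusted edgeR p of 0.0457, held a start of Pprc1, chr19:46056001-46057000, at 0.711% and 1.27% with vehicle, 0% and 0.248% with C29, 0% and 0.770% with 5-azadC and 0% in both combination libraries. The highest of these values, 1.27%, compares with 0.216% to 0.329% in the unmethylated control DNA. Members differed between the 2 libraries of a group by a median of 7.17 points with vehicle and 9.43 points with C29.

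Single cytosines had larger differences than tiles in both directions. In Esrra the largest C29 difference was at chr19:6914225, in a noncoding exon, with 97.2% and 100% with vehicle and 69.5% and 0% with C29, over 10 to 59 reads. In Esrrb it was at chr12:86422527 in an intron, with 0% in both vehicle libraries, 61.5% and 100% with C29, 0% in both 5-azadC libraries and 0% and 18.4% with the combination, over 10 to 38 reads. Both C29 libraries were high there and the surrounding tile was not called. In Ppargc1a the cytosine chr5:51493712 was at 88.7% and 45.0% with vehicle and 98.5% and 100% with C29. The Esrrb stretch is printed on the plus strand, chr12:86422498-86422537, with 5 tested CpGs in capitals, because all 5 had the same read count in each library and stood at 61.5% in C29 library 1.
Esrrb intron D: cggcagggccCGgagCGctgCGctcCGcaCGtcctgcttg

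5-azadC alone against vehicle moved these genes mostly downward, as in the genome. It called 15 of 103 tiles (14.6%, against 15.4% of all tiles), 13 lower (12.6%, against 12.7%) and 2 higher (1.94%, against 2.71%). Esrrg had 9 of the calls in 41 tested tiles, Esrrb 5 in 20 and Esrra 1 in 8, and Ppargc1a, Ppargc1b, Pprc1 and Nrip1 had none. Of single cytosines, 85 of 607 were called (14%, against 13.1%), 72 lower (11.9%, against 10.0%) and 13 higher (2.14%, against 3.12%). In 11 of the 15 tiles both 5-azadC libraries lay on one side of vehicle, 10 lower (9.71%, against 9.35% of all tiles) and 1 higher (0.971%, against 1.59%). Called or not, 30 tiles separated with 5-azadC lower (29.1%, against 28.4%) and 6 higher (5.83%, against 5.96%). edgeR called 0 of 103, with a smallest adjusted p of 0.839, and had 6 tiles (5.83%, against 5.88% of all tiles) at an unadjusted p below 0.05.

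Several 5-azadC calls in Esrrg introns had 4 or more cytosines. Tile chr1:188102001-188103000, with 5 cytosines and 152 to 431 reads, was at 54.1% and 65.6% with vehicle, 41.3% and 51.0% with C29, 15.4% and 37.1% with 5-azadC, and 19.7% and 13.8% under both agents. All 4 libraries with 5-azadC were below all 4 without, by 31.5 points on average (edgeR unadjusted p = 0.0178). Tile chr1:187630001-187631000, with 7 cytosines and 202 to 814 reads, was at 67.9% in both vehicle libraries, 75.2% and 63.1% with C29, 44.0% and 39.1% with 5-azadC and 53.6% and 51.5% under both agents. Here too the groups with and without 5-azadC were separate, and C29 alone overlapped vehicle. Tile chr1:187710001-187711000 was at 84.1% and 89.6% with vehicle and 55.8% and 55.6% with 5-azadC, but at 78.9% and 73.4% with the combination and 73.9% and 86.7% with C29. The first and second of these tiles are printed on the plus strand, chr1:188102046-188102167 and chr1:187630587-187630809, with tested CpGs in capitals, because all 4 libraries with 5-azadC lay below all 4 without in both.
Esrrg intron B: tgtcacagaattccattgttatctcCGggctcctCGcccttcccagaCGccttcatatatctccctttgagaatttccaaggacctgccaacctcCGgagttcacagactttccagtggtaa
Esrrg intron C: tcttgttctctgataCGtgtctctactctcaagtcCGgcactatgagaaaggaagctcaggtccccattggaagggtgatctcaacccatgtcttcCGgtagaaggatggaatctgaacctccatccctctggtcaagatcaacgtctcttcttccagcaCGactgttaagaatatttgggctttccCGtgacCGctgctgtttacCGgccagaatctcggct

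Of the other 5-azadC calls in Esrrg, tile chr1:187918001-187919000, with 3 cytosines, was at 70.1% and 77.6% with vehicle, 46.3% and 41.5% with 5-azadC and 59.7% and 48.1% under both agents. Both libraries of each group with 5-azadC were below both vehicle libraries. Tile chr1:187735001-187736000 was at 80.6% and 82.0% with vehicle and 63.3% and 22% with 5-azadC, with a wide gap between the 5-azadC libraries. In chr1:187984001-187985000 and chr1:188005001-188006000 the 5-azadC libraries were at 61.4% and 15.9% and at 70.9% and 10.9%, so library 2 alone was low.

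Esrra itself was called lower with 5-azadC in an intron. Tile chr19:6916001-6917000, with 2 cytosines, was at 93.4% and 77.2% with vehicle, 90.2% and 92.2% with C29, 48.0% and 57.8% with 5-azadC, and 80.6% and 65.6% under both agents. The 5-azadC libraries were the lowest, and combination library 1 overlapped vehicle (edgeR unadjusted p = 0.0388 for 5-azadC over 8 libraries). In Nrip1, tile chr16:76295001-76296000 in an intron, with 10 cytosines and 300 to 788 reads, was at 95.8% and 95.1%, 93.3% and 97.9%, 82.0% and 86.6%, and 87.8% and 63.0% in the same order of groups. All 4 libraries with 5-azadC were below all 4 without, by 15.7 points (edgeR unadjusted p = 0.0152), although the 11 points with 5-azadC alone stayed under the calling threshold. Both stretches are printed on the coding strand of their genes, the minus strand, chr19:6916692-6916762 and chr16:76295395-76295641, with tested CpGs in capitals.
Esrra intron G: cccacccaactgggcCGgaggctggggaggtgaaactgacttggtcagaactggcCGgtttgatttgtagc
Nrip1 intron H: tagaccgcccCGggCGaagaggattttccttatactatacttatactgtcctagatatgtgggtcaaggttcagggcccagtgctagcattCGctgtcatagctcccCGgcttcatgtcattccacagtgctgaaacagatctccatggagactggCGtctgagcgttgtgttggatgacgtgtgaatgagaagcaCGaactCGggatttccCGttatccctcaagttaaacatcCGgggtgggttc

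Separation of all 4 libraries with 5-azadC from all 4 without was seen in 5 of the 103 tiles, all lower (4.85%, against 5.34% of all tiles, with 0.308% of all tiles higher). Besides the tiles above these were chr19:46069001-46070000 in coding sequence of Pprc1, at 93.3% and 100% with vehicle, 100% in both C29 libraries, 68.0% and 90.6% with 5-azadC and 62.8% and 92.6% under both agents, and an Esrrg intronic cytosine in chr1:187704001-187705000. That cytosine was at 100% in all 4 libraries without 5-azadC, 0% and 76.2% with 5-azadC and 58.8% and 72.6% under both agents, and the 0% rested on 35 reads, which allow up to 8.57%. For C29 no tile separated 4 libraries from 4 in either direction, against 0.781% of all tiles lower and 1.05% higher.

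The 2 gains called with 5-azadC were neighbouring cytosines of Esrrb. Tiles chr12:86388001-86389000 and chr12:86389001-86390000 meet between them, and their read counts were equal in 7 libraries and 51 and 52 in the other. Both were at 0% in the vehicle and C29 libraries, 72.7% in 5-azadC library 1 and 90.9% and 0% with the combination, and they differed only in 5-azadC library 2, at 0% and 100%. As few as 11 reads stood behind these values. Other Esrrb calls were chr12:86377001-86378000, lower with 5-azadC at 33.3% and 30.6% against 87.3% and 47.7% with vehicle, and chr12:86507001-86508000 and chr12:86508001-86509000, which fell by 26.8 and 33.5 points and were at 0% in 5-azadC library 2 alone.

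**Figure D5:**
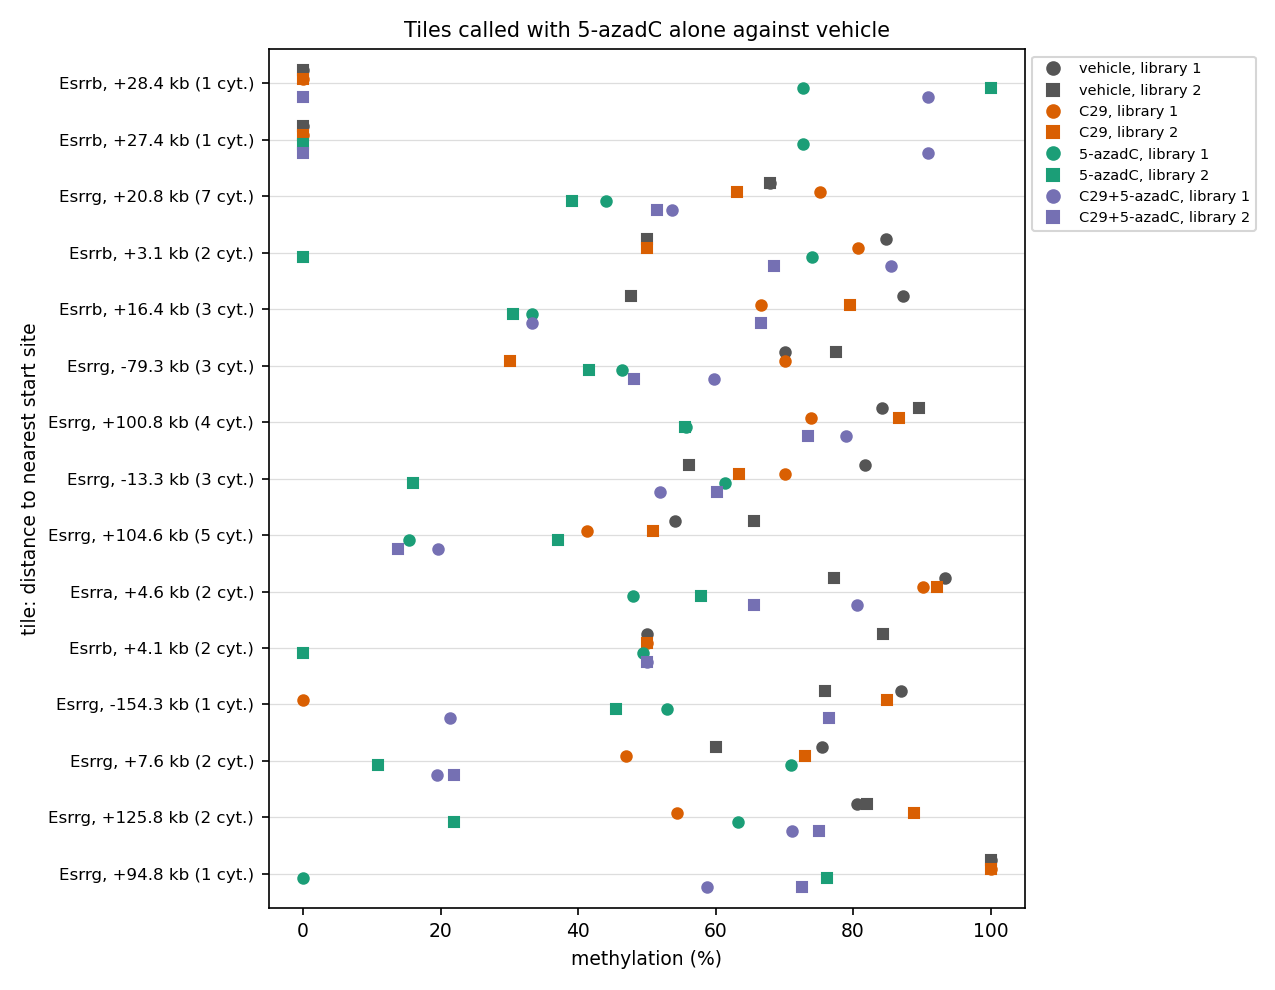
Methylation (%) of the 15 tiles called with 5-azadC alone against vehicle, in each of the 8 libraries; rows are labelled with the gene, the distance of the tile centre from the nearest start site (kb) and the number of tested cytosines. In 13 rows the 5-azadC libraries lie lower on average, and the tiles with 4, 5 and 7 cytosines show both 5-azadC libraries below both vehicle libraries.

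With C29 and 5-azadC together, 10 of 103 tiles were called against vehicle (9.71%, against 15.1% of all tiles), 8 lower (7.77%, against 11.6%) and 2 higher (1.94%, against 3.49%). Esrrg had 8 of them in 41 tested tiles, Esrrb 1 in 20 and Pprc1 1 in 10. In 6 of the called tiles, all lower, both combination libraries lay on one side of vehicle (5.83%, against 7.84% of all tiles), and none was higher in both (2.03% of all tiles). Called or not, 22 tiles separated with the combination lower (21.4%, against 22.9%) and 2 higher (1.94%, against 7.04%). Of single cytosines, 82 of 607 were called (13.5%, against 13.5%), 59 lower (9.72%, against 9.51%) and 23 higher (3.79%, against 3.99%). In Esrrg the largest loss was in chr1:188005001-188006000, at 75.6% and 60.0% with vehicle, 47.0% and 73.1% with C29, 70.9% and 10.9% with 5-azadC, and 19.4% and 21.9% under both agents. The combination libraries were both low and close to each other, while the 5-azadC libraries were far apart. Tile chr1:187741001-187742000 was at 67.7% and 82.6% with vehicle and 50% and 26.2% with the combination. In coding and intron sequence of Pprc1, chr19:46068001-46069000 was at 100% and 86.3%, 87.5% and 75.5%, 90.7% and 68.8%, and 55.6% and 73.8% in the order vehicle, C29, 5-azadC and combination, lowest in combination library 1. The Esrrb call, chr12:86464001-86465000, rested on combination library 1 at 2.67% against 77.0% in library 2 and 83.1% or more in the other groups. Tile chr1:188016001-188017000 rested on combination library 2, at 44.4% against 100% in library 1 and 95.8% and 85.2% with vehicle. The 2 gains, both single Esrrg cytosines, were at 84.3% and 13.0% and at 96.7% and 100% with the combination, and their vehicle libraries were at 0% and 25% and at 21.9% and 97.3%.

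For the groups with 5-azadC, most of the largest called cytosine differences lay in gene bodies or upstream, far from a start. Those near a start, both under the combination, were chr1:187609010 of Esrrg and chr19:46068109 of Pprc1. The latter lay 275 bp after the start of the noncoding transcript Pprc1-206, inside the gene. In Nrip1, the intronic cytosine chr16:76295438 was at 100% in all 4 libraries without 5-azadC, 67.1% and 64.1% with 5-azadC alone and 64.4% and 69.2% under both agents, over 39 to 113 reads. Here the replicates were close to each other and the groups with and without 5-azadC were separate. In coding sequence of Pprc1, chr19:46069717 was at 46.7% and 64.3% with 5-azadC alone and at 100% in the other 6 libraries. In Esrrg, chr1:187984318 was at 100% and 81.4% with vehicle and 25.9% and 0% with 5-azadC alone. In the single Ppargc1a tile, chr5:51493581 was at 100% in both vehicle libraries and 71.7% and 73.7% with 5-azadC alone. In Ppargc1b, the intronic cytosine at position 61332776 was at 100% in both vehicle libraries and 50% and 35.7% with 5-azadC alone, and at 100% again under both agents. With the combination, Pprc1 was lowest at chr19:46068109, at 25.9% and 47.6% against 100% in both vehicle libraries. Upstream of Esrra, in a tile that also overlaps Kcnk4, the cytosine chr19:6926024 rose from 45.2% and 50% to 90.4% and 100%.

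Whether C29 acted differently with and without 5-azadC was tested by the interaction over all 8 libraries. edgeR called 0 of 103 tiles, with a smallest adjusted p of 1, and had 3 tiles (2.91%, against 2.61% of all tiles) at an unadjusted p below 0.05. These were a UTR tile of Esrra (0.0257), an intronic tile of Nrip1 (0.0451) and an intronic tile of Esrrg (0.0466), each given by its unadjusted edgeR p. Only chr1:187843001-187844000, an Esrrg intronic tile of 1 cytosine, was called in all 3 comparisons with vehicle, which share the vehicle libraries. It was lower by 30.2 points with C29, 34.4 with 5-azadC and 28.4 with both. Library 2 lay between the vehicle libraries (87.0% and 75.9%) with C29 (84.9%) and with both agents (76.6%). These 2 calls therefore came from library 1, at 0% and 21.4%.

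Ppargc1b, which encodes PGC-1β, a coactivator partner of ERRα (ENSMUSG00000033871.14), lies on chromosome 18 from 61298136 to 61400431 on the minus strand. Its start tile (61400001 to 61401000, 39 cytosines and 1380 to 2636 reads) was at 0% in both vehicle libraries, 0% and 0.286% with C29, 0.811% and 0.379% with 5-azadC and 0.960% and 0.0685% under both agents. The 2 tiles after it stayed at or below 1.99% in every library. Its coding-exon tiles were methylated, as in 61299001 to 61300000, at 94.1% and 97.9%, 94.7% and 97.0%, 90.7% and 87.6%, and 80.2% and 100%. The sole C29 call was an intronic cytosine in 61381001 to 61382000, at 34.5% and 32.1% with vehicle and 9.64% and 0% with C29, where 0 of 35 reads allow up to 8.57%. The same cytosine was at 61.2% and 19.4% with 5-azadC and 0% and 39.0% under both agents, so the groups with 5-azadC spanned both sides of vehicle.

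Among 55 genes that act with or on these receptors, 53 had a tested tile, 374 in all. C29 called 37 of their tiles (9.89%, against 10.6% of all tiles), 22 lower and 15 higher, 5-azadC 61 (16.3%, against 15.4%) and the combination 52 (13.9%, against 15.1%). The median C29 difference was -0.0359 points over these tiles and 0 over all tiles. By role, C29 called 6 of 75 tiles of coactivators and chromatin partners (8%) and 7 of 75 of corepressors (9.33%). It called 11 of 122 of transcription factors that act with PGC-1 (9.02%) and 13 of 102 of upstream regulators of ERR or PGC-1 (12.7%). These shares lie near the 10.6% of all tiles. The largest loss was a cytosine of Akt1, a growth-signalling kinase, in chr12:112670001-112671000, at 20.3% and 100% with vehicle and 0% in both C29 libraries. With 5-azadC alone this tile was at 0% and 1.45%, and with the combination at 0% in both libraries.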

How the data were processed

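RRBS was measured in 8 tumor libraries, 2 per group, grouped by the sample titles. Per the labels and the study's methods, the authors aligned reads to mm10/GRCm38 with Bismark 0.20.0; FastQC 0.11.8, Trim Galore 0.4.1 and methylKit 1.7.0 are named in the submitters' processing notes. The sources used here do not state trimming settings or duplicate removal. The deposited files list, per CpG cytosine on each strand, its methylated fraction and an unnormalized count of reads covering it; their product, rounded, gave methylated reads.

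Cytosines with at least 10 reads in all 8 libraries were kept, and reads were summed over tiles of 1000 bp. Each treatment was compared with vehicle by the logistic likelihood-ratio test of methylKit, rewritten in Python 3.11.15 with SciPy 1.17.1 (Benjamini-Hochberg q below 0.01 over all tiles or cytosines of the genome, at least 25 points between pooled libraries). Drug effects and their interaction over 8 libraries used edgeR 4.0.16 in R 4.3.3 on methylated and unmethylated counts (adjusted p below 0.05 over all tiles). Gene means were compared by two-sided exact permutation tests. The tests were tested on simulated data with 200 shifted tiles. The overdispersion-corrected F test on 2 against 2 libraries, and edgeR where simulated libraries varied widely, called none of the shifted tiles. Their counts of 0 therefore carry little weight. Where simulated libraries varied little, edgeR called 93% of the shifted tiles. Where they varied widely, the logistic test also called 4.57% of the unshifted tiles, so its calls can arise without a shift. Intervals are 95% Wilson intervals, and the limit for a count of 0 is 3 reads of the total. A tile counts whole where it crosses a region's edge.

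Named were all 7 genes, tiles with a start site or a call (where over 12 tiles of a gene were called, the 4 largest in each direction had priority), the largest called cytosine difference per gene and comparison, and the largest called C29 tile in each direction among the partner genes. Some items that these rules name are not reported here. The members and the gene lists were chosen with earlier results of these data known. Sequences came from the GRCm38 genome and the RefSeq promoters. Alternatives covered coverage minimum, tile length, cytosines per tile, strands, the minimum difference, the replicate block and leaving out each library.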

Additional observations from a re-analysis of the deposited data

How the results depend on the processing

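Counts of called tiles in the order C29, 5-azadC and combination against vehicle (9, 15 and 10 as reported) depended on coverage rules and thresholds. They were 15, 23 and 20 with 10 reads required only in the 4 libraries compared, 34, 48 and 39 with a minimum difference of 10 points, and 1, 6 and 4 with at least 3 cytosines per tile; with both strands of a CpG summed the combination had 17. They were 0 in all 3 by the overdispersion-corrected F test and by edgeR, which had 1, 6 and 3 tiles at an unadjusted p below 0.05 for C29, 5-azadC and their interaction. Leaving out 1 library at a time gave 12 to 15, 17 to 23 and 16 to 24 tiles. Cytosine counts (63, 85 and 82) were 106, 128 and 133 at a coverage minimum of 5, 22, 35 and 30 at 20, 123, 154 and 128 with coverage required in 4 libraries only, 130, 165 and 151 at 10 points and 0 by the F test. The other alternatives kept counts within 1.5 times.

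Single tiles turned direction in some settings. For C29, Esrrg chr1:187676001-187677000 was at -15.5 points with strands summed and from -22 to 78.0 with 1 library left out, negative without vehicle library 1, and chr1:187843001-187844000 from -83.1 to 1.77, positive without C29 library 1. For 5-azadC, Esrrb chr12:86388001-86389000 was at -5.92 at a coverage minimum of 5 and -0.639 with strands summed, and Esrrg chr1:188005001-188006000 from -58.5 to 1.60, positive without 5-azadC library 2. For the combination, Esrrg chr1:187704001-187705000 was at 14.3 with coverage required in 4 libraries, chr1:187616001-187617000 at -8.29 without combination library 1 and chr1:188016001-188017000 from -46.1 to 9.49, positive without combination library 2.

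Gene means over 8 libraries were small for C29, and their sign turned without reaching the threshold: Esrra was at 0.0440 and 0.574 points at coverage minimums of 5 and 20 and 0.364 with strands summed, Pprc1 at 0.381 at a minimum of 5 and Esrrg at 0.204 in the gene body alone. With 1 library left out at a time, the C29 differences ran from -2.17 to 1.05 for Esrra, -3.86 to 0.732 for Esrrg, -0.641 to 12.2 for Ppargc1a and -0.693 to 0.294 for Pprc1, turning sign in each. For 5-azadC, pooling reads over cytosines gave 6.31 for Esrra and 0.190 for Pprc1. It took Nrip1 to -6.93, with the unadjusted exact permutation p no longer below 0.05. That threshold was also missed by Pprc1 at coverage minimums of 5 and 20 (-1.30 and -1.93) and by Nrip1 at 20 (-2.76). Ppargc1a and Ppargc1b (-13.7 and -2.46, at 5) and Esrrg (-8.77, at 20) reached it. Leaving out 1 library gave -2.83 to -1.81 for Nrip1. Without either vehicle or either C29 library its exact permutation p was 0.0571, although the libraries with 5-azadC still lay below all the others. The range for Esrrb was -5.87 to -3.83, and it reached the threshold without combination library 2. The causes were not tested.

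Replicate numbers did not pair the libraries, as deviations of same-numbered libraries correlated between -0.0063 and 0.0123 over tiles. With the replicate block, permuting within replicate number left Pprc1 at -1.80 and Nrip1 at -2.29 points, at the smallest exact permutation p that this allows, 0.0556. The block gave 9, 15 and 9 called tiles. Ppargc1a has no value at a coverage minimum of 20. Depth limits single cytosines, which had as few as 10 reads, more than tiles with many cytosines, and with 2 libraries per group the spread between tumors is poorly known.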
